A study of Homo sapiens with 13 samples.

Results

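The human Schlafen genes SLFN5, SLFN11, SLFN12, SLFN12L, SLFN13 and SLFN14 lie side by side on chromosome 17, and the 6 genes were taken from GENCODE release 44 out of 20007 protein-coding genes. The rule that picks them uses name and position and no measured value, although the cluster was taken up with earlier results of these data known. For each gene, the accessible regions up to 1 kb from the transcription start site (TSS), in the gene body and in the cluster with 50 kb to either side were read in 2 small cell lung cancer (SCLC) lines. The cluster reached from the SLFN5 start to the SLFN14 start, chr17:35243071-35560819 on hg38 (318 kb), and the window around it held 418 kb. In that window, H82 had 18 regions and H146 had 9.

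Accessible DNA was mapped by ATAC-seq, in which the transposase Tn5 inserts sequencing adaptors into open chromatin. H82 is an established SCLC line of the NEUROD1 subtype and H146 one of another neuroendocrine subtype, both with the genotype labelled WT. Each was left untreated or was kept for 14 days in 100 nM FHD-286, which blocks SMARCA4 and SMARCA2, the ATPases of the SWI/SNF chromatin remodellers. There were 3 untreated and 3 treated H82 libraries, and 4 untreated and 3 treated H146 libraries, of which 3 untreated ones were sequenced apart from the rest. The treated and untreated libraries of a line were pooled in 1 list of regions, called an atlas here, which gives chromosome, start and end and no height, count or library. FHD-286 was therefore not compared with no treatment, no value had a replicate, and all values stand side by side with no test. The line cannot be told apart from the number of libraries, their depth or the DNA copies of this locus in each line, and a site open in few cells cannot be told apart from a weak site in many.

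Schlafen genes are induced by interferon in many cell types, and their proteins share a core domain that in several members cuts RNA. SLFN5, SLFN11, SLFN13 and SLFN14 also carry a helicase-like part, which SLFN12 and SLFN12L lack. SLFN11 is the member best known in SCLC: it is recruited to stalled replication forks through RPA, blocks them for good, and makes cells sensitive to topoisomerase and PARP inhibitors and to platinum. Its silencing through promoter methylation or EZH2 goes with resistance to those drugs. SLFN12 cuts RNA when it is held by the phosphodiesterase PDE3A, SLFN11 and SLFN13 cut tRNA, and SLFN14 is bound to ribosomes and is mutated in an inherited platelet disorder.

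Before the genes are described, the ends of the regions in the 2 atlases have to be considered. Among 113588 pairs of regions that overlapped one to one between the lines, 34514 (30.4%) started at exactly the same base, whereas each offset of 1 to 5 bp was met in 284.5 pairs on average. The last base was the same in 34576 pairs (30.4%), whereas each offset of 1 to 5 bp was met in 278.1 pairs on average. Both ends were identical in 19180 pairs (16.9%). The share was 56.9% where the H146 region was 200 bp wide and 8.295% where it was at least 1000 bp wide. Presence of such a region in both atlases is thus not a pair of separate observations, and the cause was not tested. In the cluster window, 2 of 8 pairs had both ends in common, 1 pair had 1 end in common, and 5 pairs had neither. The pairs with both ends in common were the region upstream of SLFN11 and a 200-bp region in an intron of SLFN5. Most counts and covered shares of the cluster and its genes that include them are given with and without them. The label of H82 was checked at NEUROD1, the transcription factor that defines its subtype. NEUROD1 had a 7865-bp region over its start in H82, and H146 had none up to 1 kb away.

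The sequences that follow are shown for SLFN11, SLFN12 and SLFN12L, whose promoter sequences were at hand. No region of either line overlapped those promoter stretches. Capitals mark exact matches, on either strand, to the interferon regulatory factor (IRF) word GAAANNGAA, the STAT word TTCNNNGAA, the ETS word CCGGAAGT, the AP-1 word TGANTCA and the GC box GGGCGG. The promoter stretches come from a set of RefSeq promoters (GRCh38.p14) that held 3 of the 6 genes. They are written in the direction of transcription and stop before the first base of the GENCODE gene. They are chr17:35373702-35373871 for SLFN11, chr17:35433284-35433424 for SLFN12 and chr17:35537679-35537928 for SLFN12L, all on the minus strand. The regions are reference sequence of hg38 on the plus strand, which for SLFN11 to SLFN14 runs against transcription. They are the region upstream of SLFN11 at chr17:35374349-35374629, an A-rich stretch of the H82-only region upstream of SLFN12 at chr17:35434546-35434606, and the H146-only region in SLFN12L at chr17:35533337-35533635.
SLFN11 promoter: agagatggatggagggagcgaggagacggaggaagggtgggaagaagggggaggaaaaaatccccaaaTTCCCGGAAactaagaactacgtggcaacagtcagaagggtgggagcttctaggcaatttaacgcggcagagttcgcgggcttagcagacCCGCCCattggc
SLFN12 promoter: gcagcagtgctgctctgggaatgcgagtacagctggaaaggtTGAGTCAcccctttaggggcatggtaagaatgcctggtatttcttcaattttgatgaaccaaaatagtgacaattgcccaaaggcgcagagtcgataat
SLFN12L promoter: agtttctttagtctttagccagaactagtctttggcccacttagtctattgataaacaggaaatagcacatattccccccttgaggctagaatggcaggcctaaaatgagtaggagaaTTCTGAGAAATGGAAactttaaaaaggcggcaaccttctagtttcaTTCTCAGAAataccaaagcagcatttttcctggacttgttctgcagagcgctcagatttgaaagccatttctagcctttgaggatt
Region upstream of SLFN11, both lines: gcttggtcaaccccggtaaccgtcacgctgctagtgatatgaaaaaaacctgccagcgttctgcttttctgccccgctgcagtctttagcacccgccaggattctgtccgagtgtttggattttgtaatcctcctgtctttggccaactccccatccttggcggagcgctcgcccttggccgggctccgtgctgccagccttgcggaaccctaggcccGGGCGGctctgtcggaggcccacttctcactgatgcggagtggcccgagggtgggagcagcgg
Region upstream of SLFN12, H82 only, stretch nearest the gene: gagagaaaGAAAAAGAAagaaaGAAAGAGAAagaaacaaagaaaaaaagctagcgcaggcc
Region in SLFN12L, H146 only: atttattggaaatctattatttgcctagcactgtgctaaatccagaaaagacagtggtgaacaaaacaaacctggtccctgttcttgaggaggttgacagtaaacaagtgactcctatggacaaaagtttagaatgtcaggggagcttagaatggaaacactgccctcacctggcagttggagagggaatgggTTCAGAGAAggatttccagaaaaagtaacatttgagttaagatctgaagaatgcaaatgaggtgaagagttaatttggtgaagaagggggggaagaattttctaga

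SLFN11, on the minus strand at chr17:35350305-35373701, had 14 annotated transcripts and 9 distinct start sites. Both atlases held a single region of 281 bp upstream of it, whose near edge lay 648 bp before the TSS. The region had the same first and last base in H82 and H146, so it is not a pair of separate observations. No region in either line lay over the TSS base itself, and 0% of the 23.4-kb gene body was covered in either line. Of the DNA within 10 kb of the TSS, 1.41% was covered in each line, all of it by this region, and 0% was covered in either line without it. Next to it, gaps without a region ran for 59.9 kb on the upstream side in H82 and for 85.8 kb on that side in H146. On the downstream side H146 had a gap of 61.2 kb, whereas H82 had a 378-bp region 27085 bp from the TSS, past the end of the gene.

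The 281-bp region was rich in CpG for its width. It held 19 CpG sites, 61.6% of its bases were G or C, and the observed over expected CpG ratio, which is 1 when CpG is as frequent as its bases allow, was 0.716. Over 7553 H82 regions of 271 to 291 bp the median ratio was 0.195, and over 5986 H146 regions of that width it was 0.184. The promoter of SLFN11, from 250 bases before to 50 bases after the RefSeq TSS, had a ratio of 0.772 and 58.0% G or C. The ratio is close to the middle of 15843 protein-coding promoters, whose median ratio was 0.763, and 48.5% of them had a higher one. A higher share of G or C was found in 64.8% of them. The promoter held 1 STAT word, which 6.97% of all promoters had, and 1 GC box, which 58.5% had. The region upstream of SLFN11 held 1 GC box, as did 9.51% of H82 and 8.40% of H146 regions of its width, and no IRF, STAT, ETS or AP-1 word. Neither atlas placed this CpG-rich promoter itself in a region.

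SLFN5, the only member on the plus strand (chr17:35243071-35273655), was the only one with a region over its TSS. Its width was 1343 bp in H82 (chr17:35242287-35243629) and 1432 bp wide in H146 (chr17:35242198-35243629). The H146 region thus reached 89 bp further upstream. Both ended at the same base, so separate observation of this region in the lines cannot be assumed. Its CpG ratio was 0.669 in H82 and 0.702 in H146. Non-coding genes start in the same region, so the open DNA cannot be assigned to SLFN5 alone. In the gene body, SLFN5 had 3 regions in H82 and 2 in H146, which covered 3.20% and 2.48% of its 30.6 kb, or 2.55% and 1.83% without the region of identical ends. The H82 region without a partner was 220 bp wide, lay in an intron 1409 bp past the TSS, and held 1 IRF word and 1 GC box. The 200-bp intronic region 12432 bp past the TSS had identical ends in both lines and held no CpG. Within 10 kb of the SLFN5 TSS, 7.82% of the DNA was covered in H82 and 7.16% in H146.

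SLFN12, which starts at chr17:35433283 on the minus strand, had no region within 1 kb of its TSS and none in its 22.4-kb body in either line. H82 had a 445-bp region 1263 bp upstream, between SLFN12 and the neighbouring end of SLFN13. The closest H146 region lay 27136 bp upstream. This was the only member with a region within 10 kb in H82 and none in H146, with covered shares of 2.23% and 0%, a status found in 3.78% of all protein-coding genes. The H82-only region held 4 IRF words, all within runs of A and G, of which 2 lie in the stretch shown above, and no STAT, ETS, AP-1 or GC box word. Of 5042 H82 regions of 435 to 455 bp, 13.2% had at least 1 IRF word, and 1 region, this one, had 4 or more. Of 4202 H146 regions of those widths, 14.3% had at least 1 and 0 had 4 or more. The word count was looked up because the region stood out and is a description. The SLFN12 promoter had a CpG ratio of 0.632, with 1 ETS word in a transcribed stretch that is not printed, 1 AP-1 word, and 2 copies of the E-box CAGCTG. Those words were found in 6.19%, 5.75% and 17.7% of all promoters.

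SLFN13 (chr17:35435096-35448837, minus strand) had no region within 10 kb of its TSS in either line, which held for 5.79% of protein-coding genes, and none in its 13.7-kb body. The closest region lay 11641 bp upstream in H82, where it was 417 bp wide, and 11582 bp upstream in H146, where it was 446 bp wide. It was the most CpG-rich region of the window in H82 and in H146, with ratios of 0.784 and 0.773 and 5 GC boxes in each. These overlapping regions shared neither end.

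SLFN12L, the longest member at 73.4 kb (chr17:35464249-35537678, minus strand), had 1 intronic region in each line, at different places. The H82 region was 355 bp wide and lay 2815 bp past the TSS, and the H146 region was 299 bp wide and lay 4043 bp past it, with 873 bp between them. They covered 0.484% of the body in H82 and 0.407% in H146. The H146 region held 1 STAT word and no CpG, and the H82 region held 3 CpG. The SLFN12L promoter was poor in CpG, with 2 CpG sites and a ratio of 0.145, and 91.5% of protein-coding promoters had a higher one. It held 2 STAT words and 1 IRF word, which overlaps one of them, against 6.97% and 7.06% of promoters with each word. The IRF word was present in 1 of the 3 promoters read. A gap without a region of 73.6 kb in H82 and 72.5 kb in H146 spanned the rest of SLFN12L.

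SLFN14 (chr17:35543985-35560819, minus strand) had no region within 1 kb of its TSS in either line. H82 had a 200-bp region in an intron, 5631 bp past the TSS, which covered 1.19% of the gene body, and H146 had none there. Of the 50-base words in this H82 region, 71.5% occur once in hg38, so that some reads may not be placed with certainty. Upstream of SLFN14, both lines had a wide region, of 1711 bp in H82 and 1262 bp in H146, whose near edges lay 6323 and 6500 bp before the TSS. It also covered the start of SNHG30, a host gene of small nucleolar RNAs that was named after its values were seen. Within 10 kb of the SLFN14 TSS, 9.56% of the DNA was covered in H82, the highest of the members, and 6.31% in H146.

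**Figure D1:**
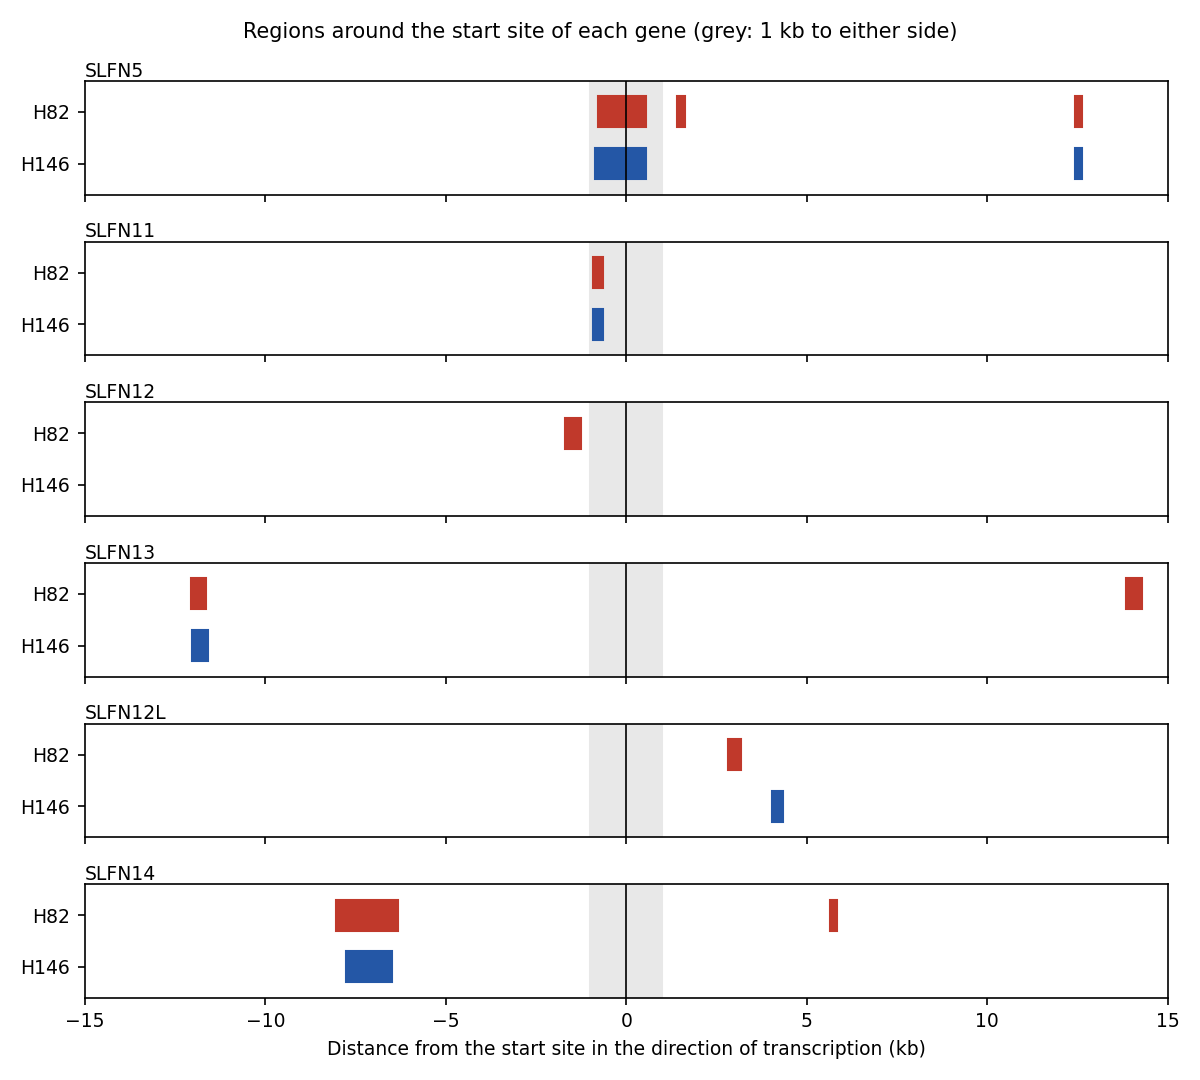
Accessible regions within 15 kb of each Schlafen gene's start site in H82 (red) and H146 (blue), with distance in kb in the direction of transcription and grey marking 1 kb to either side of the start. SLFN5 is the only gene with bars across its start, SLFN11 has equal bars 648 bp upstream in both lines, and the other 4 genes have none in the grey band.

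Over the 6 genes, 2 (SLFN5 and SLFN11) had a region at the start, within 1 kb, in both lines, and 4 (SLFN12, SLFN12L, SLFN13 and SLFN14) had one in neither. Of all protein-coding genes, 75.4% had such a region in both lines and 17.7% in neither. No member had one in H82 only or in H146 only, against 5.09% and 1.86% of all genes. Without the regions of identical ends, SLFN5 alone remained in either line, and the share of all genes with a region in both became 72.5%. The SLFN5 regions still shared 1 end, so this setting does not make them separate observations. A region lay over the TSS base in 1 of 6 members in each line, compared with 72.3% of all genes in H82 and 69.6% in H146. The cluster was thus poorer in regions at its starts than most genes, and at 1 kb the same starts had one in both lines. At 2 kb the lines differed: SLFN12 was added in H82, for 3 members against 2 in H146.

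**Figure D2:**
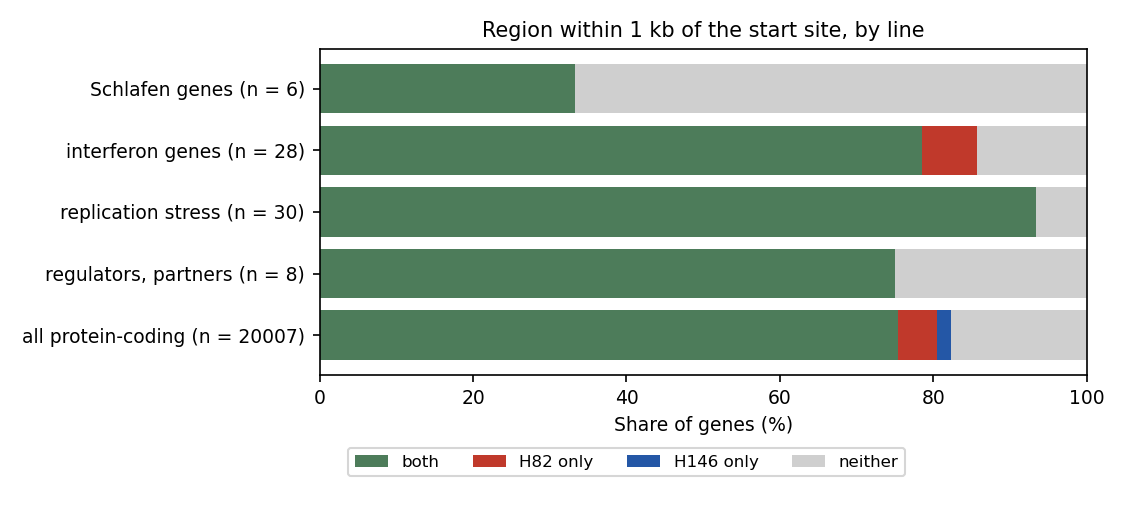
Share of genes (percent, horizontal axis) with a region up to 1 kb from the start site in both lines, in one line only (H82 or H146) or in neither, for the 6 Schlafen genes, the lists described in the text and all 20007 protein-coding genes. The Schlafen bar has 4 of 6 genes with none in either line, against 17.7% of all genes.

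In the gene bodies, 3 of 6 members (SLFN11, SLFN12 and SLFN13) had no region in either line, which held for 7.6% of all protein-coding genes. Of the 3 members with a region, SLFN14 was covered at least 2 times as much in H82 as in H146, where it had none. This call rests on a single 200-bp region and was lost with regions of at least 500 bp, where the difference was 0. SLFN5 and SLFN12L stayed below that ratio. Among all genes with a region in the body, 18.4% passed the ratio in favour of H82 and 4.4% in favour of H146, where no member did. Summed over the members, 0.851% of the body sequence was covered in H82 and 0.587% in H146, and 0.740% and 0.476% without regions of identical ends. The median of all protein-coding genes was 7.13% in H82 and 5.86% in H146, above each member in both lines.

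**Figure D3:**
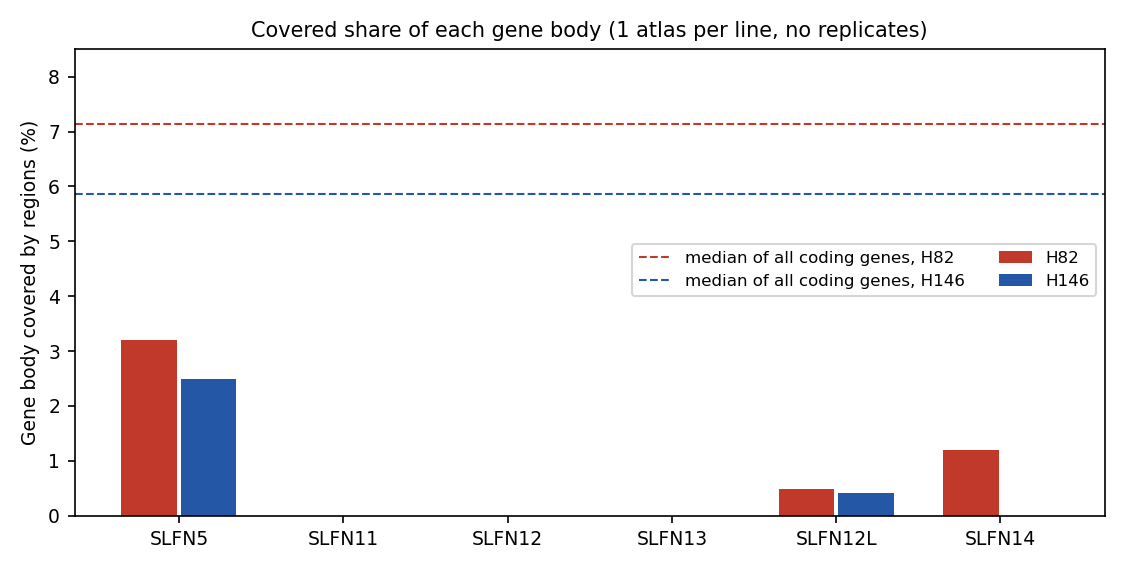
Share of each Schlafen gene body covered by regions (percent, vertical axis) in H82 (red) and H146 (blue), with dashed lines at the median of all protein-coding genes. SLFN5 has the highest bars, at 3.20% and 2.48%, SLFN11, SLFN12 and SLFN13 have none, and all bars lie below the dashed lines at 7.13% and 5.86%.

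In the whole window the lines differed more than in the genome. The 18 H82 regions covered 2.23% of the window and the 9 H146 regions 1.48%, which makes 2 times as many regions and 1.504 times the covered DNA in H82. The ratio of region numbers was 1.19 over the genome, 1.26 over chromosome 17 and 1.77 over the 2 Mb around the window, so the surrounding DNA had much of the same excess. When the chromosomes were tiled in windows of the same length, 6960 windows held a region in at least 1 line. Of these, 27.5% had at least 1.5 times the covered share in H82, 8.26% had it in H146, and 15.2% had at least 2 times the regions in H82. The difference in the cluster was therefore of a size met in many places. Among the flanks of 20, 50 and 100 kb, it reached these ratios of 2 and 1.5 only with 50 kb. Without a flank, from the SLFN5 start to the SLFN14 start, the ratios were 1.83 for region numbers and 1.79 for covered DNA. The ratios of region numbers and covered DNA were 1.75 and 1.41 with 20 kb and 1.69 and 1.42 with 100 kb. At 50 kb they were 1.25 and 1.185 with regions of at least 500 bp, and 2.29 and 1.55 without regions of identical ends. A lower H82 covered share than that of the cluster was found in 27.2% of the 6960 windows, and a lower H146 share in 22.7%. Windows without a region in either line, which are lower still, were left out. From the SLFN5 start to the SLFN14 start there were 11 H82 and 6 H146 regions, covering 1.23% and 0.687%. The covered shares were 4.61% and 3.26% for the 2 Mb around the window, 5.41% and 4.49% for the genome, and 10.9% and 8.53% for chromosome 17. These values include the regions of identical ends.

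**Figure D4:**
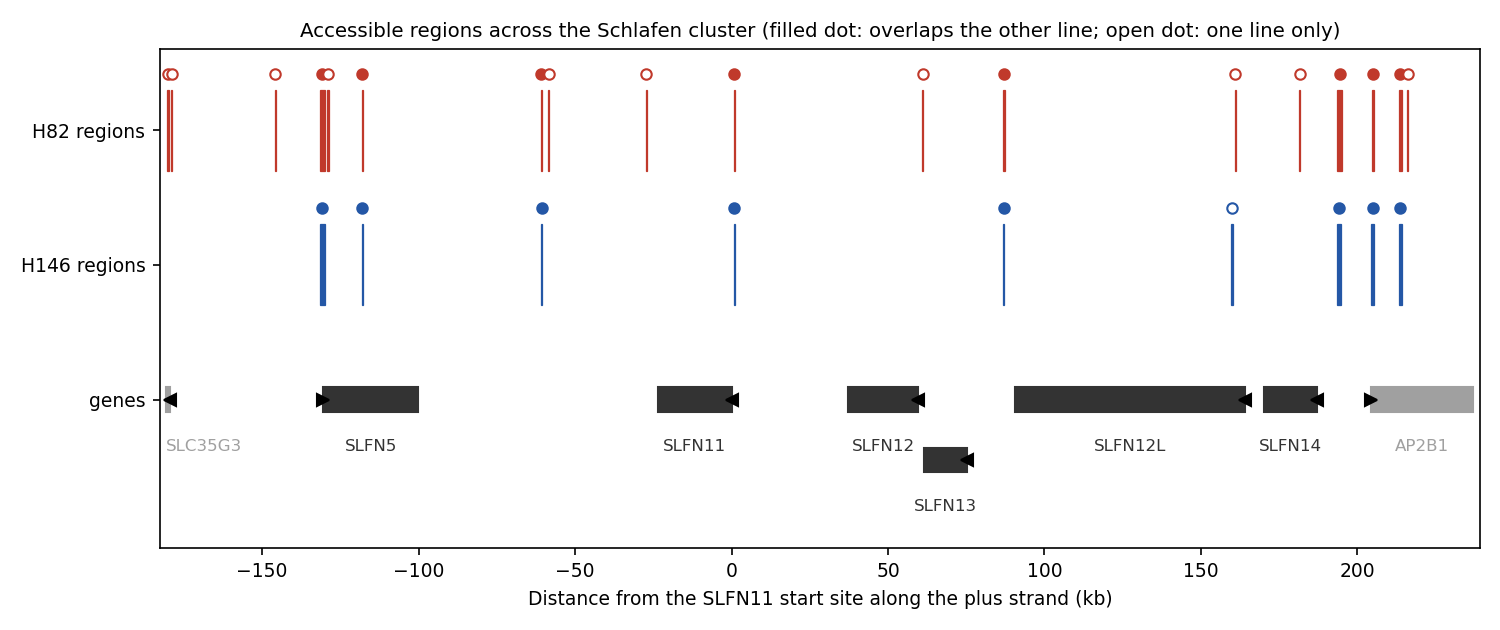
Regions of H82 (red, 18) and H146 (blue, 9) along the Schlafen cluster, with distance from the SLFN11 start in kb along the plus strand, genes below (dark for Schlafen genes, grey for the neighbours SLC35G3 and AP2B1) and arrowheads at their starts. Filled dots mark regions that overlap the other line and open dots those in one line only, of which there are 10 in H82 and 1 in H146, and bars of narrow regions are drawn at a minimum width.

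Of the H146 regions, 8 of 9 overlapped one in H82 (88.9%, 95% exact Clopper-Pearson interval 51.8 to 99.7%), and of the H82 regions 8 of 18 did so (44.4%, interval 21.5 to 69.2%). The intervals cover counting error only. The H82 share was 50% with flanks of 20 kb, 54.5% with 100 kb and 80% with regions of at least 500 bp, so whether more or fewer H82 regions had a partner depends on the window and the width. Over the genome, the shares were 70.5% for H146 and 59.3% for H82, and both lie within these intervals. Without the regions of identical ends, the shares were 85.7% of 7 and 37.5% of 16. The 10 H82-only regions were 200 to 445 bp wide, with a median of 288 bp, and 0 of them reached 500 bp. Those with a partner were wider, with medians of 630.5 bp (H82) and 636 bp (H146).

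The shared regions were also richer in CpG. Their median observed over expected ratio was 0.674 in H82 and 0.694 in H146, and 6 of 8 had a ratio of at least 0.6 in each line. Without the regions of identical ends, 5 of 6 did so in each line. The H82-only regions had a median ratio of 0.236, and 1 of 10 reached 0.6. That one was the 378-bp region past the end of SLFN11, with 0.669. With regions this few and of unequal width, these counts are descriptions.

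**Figure D5:**
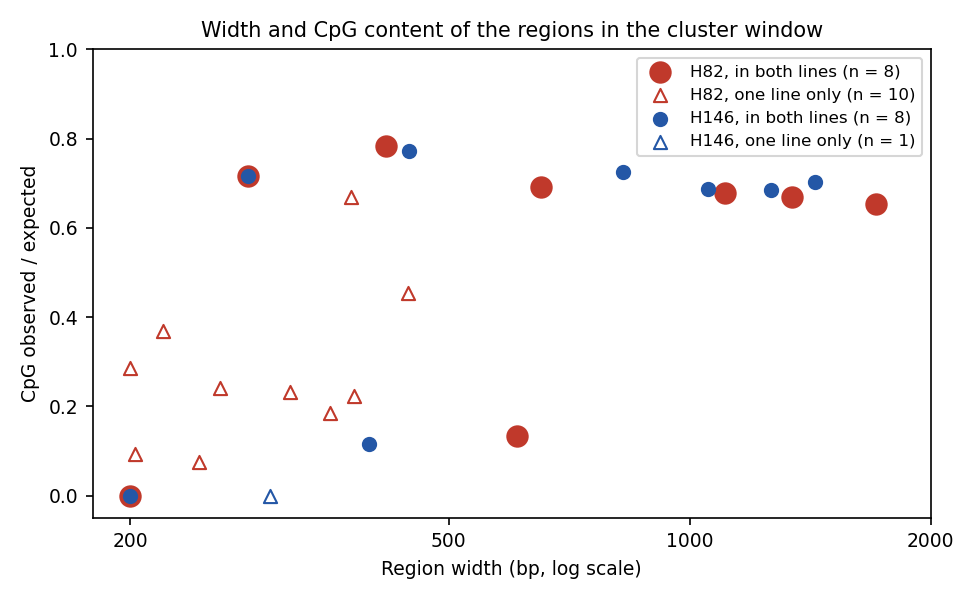
Observed over expected CpG ratio against width (bp, log axis) of each region in the cluster window, with circles for regions in both lines (larger for H82) and open triangles for regions in one line only. The 10 H82-only regions lie between 200 and 445 bp, and the 2 places where a small circle sits inside a large one are the regions of identical ends.

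The neighbours of the cluster were also read. AP2B1, a subunit of the clathrin adaptor AP-2, had an open start (a region within 1 kb) in H82 and in H146. SLC35G3, of the solute carrier superfamily, had 2 such regions in H82 and none in H146. None of the 50-base words in the closer one occur once in hg38, and 70.5% of those in the other do. Of 25 non-coding genes with their TSS in the window, 6 had a region there in both lines, 19 in neither, and none in one line only. Among the Schlafen genes, the share of 50-base words that occur once was 90.4% around the SLFN14 TSS and 99.4 to 100% around the others, and 88.7 to 97.4% over the gene bodies. The part of read placement in the missing regions was not tested.

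Open starts in the pathways around the Schlafen genes are read against the 75.4% of all protein-coding genes with a region in both lines. A region in H82 only was found in 5.09% of all genes. The lists were not counted again without regions of identical ends. Of 28 genes of interferon signalling and response, 22 had open starts in both lines, a share near that of all genes. IFNAR2, a chain of the type I interferon receptor, and OAS2, an interferon-induced sensor of double-stranded RNA, had one in H82 only, each of 200 bp. BST2, IFI44, IRF1 and MX2 had none in either line. Of 30 genes of replication stress and SLFN11 partners, 28 had a region in both lines, among them RPA1, with regions of 1726 and 1866 bp over its start. DDB1 and RAD1 had none within 1 kb, although DDB1 had a 601-bp region 1040 bp upstream with the same width in both lines. Of 8 regulators and partners, 6 had a region in both lines, again near the share of all genes. They included EZH2, the methyltransferase of the Polycomb complex, with 2392 bp in H82 and 3194 bp in H146, and PDE3A, with 2615 and 2679 bp. EED, a Polycomb subunit, and ETS1 had none within 1 kb in either line. Their bodies did hold regions, covering 3.57% (H82) and 3.49% (H146) of EED and 6.835% and 6.958% of ETS1. The bodies of BST2, DDB1, IRF1 and RAD1 also held regions in both lines, and those of IFI44 and MX2 in H146 only. For the lists, only the start of the gene was read, so starts of other transcripts may lie in such regions. The median body coverage was 5.57% in H82 and 4.67% in H146 for the interferon genes, and 0.242% and 0% for the Schlafen genes.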

How the data were processed

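ATAC-seq regions of H82 and H146 were analysed as deposited. Per the submitters' processing notes and the study's methods, the authors trimmed reads with Trim Galore 0.4.4, aligned them to hg38 with Bowtie2 2.3.4, removed duplicates with Picard, called regions per sample with MACS2, removed blacklisted regions and merged regions within 500 bp. The deposited values are starts and ends in bp, with no score, and the number of unused per-sample columns was 0. Their read counts per region (featureCounts 1.6.0, DESeq2) were not used here. Depth per library was unknown, so its effect on the regions could not be measured. A shift for Tn5 cuts is not given in the sources used here. Because regions of any library of a line were merged, an atlas grows with libraries and depth, and width is not that of a single site.

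Here, python 3.11.15, pandas 2.3.3, scipy 1.17.1 and pysam 0.24.0 were used on 24 chromosomes, with coordinates counted from 1 and overlap from 1 bp. The TSS was the start of the GENCODE release 44 gene on hg38. Gene starts in promoter sequences were those of RefSeq. Functions for overlap and coverage were tested on simulated data. All 6 members and other protein-coding genes of the window were to be named, with non-coding genes only where the lines differed, and of the lists the genes with a region in one line only or in neither; some items of this rule are not reported here. RPA1, EZH2, PDE3A and SNHG30 were added afterwards. Members and lists were chosen with earlier results of these data known. Alternatives were other TSS windows, flanks, overlap rules and a minimum width of 500 bp. Leaving out regions of identical ends was chosen after seeing the data.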

Additional observations from a re-analysis of the deposited data

How the results depend on the processing

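The lists of regions give no height, depth or replicate, so a site just below the calling threshold cannot be told apart from closed DNA. The number of libraries differs between the lines, and the pooling hides FHD-286. No paired analysis was possible because each line has 1 pooled atlas with no value per library, and for the same reason no replicate was left out in turn. No difference between the lines in body coverage changed sign under an alternative.

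The main number of genes with a region near the start was 2 in each line. It became 1 in each line with a window of 500 bp, with regions of at least 500 bp, and without regions of identical ends, a setting chosen after the data were seen, since SLFN11 then drops out. With 2 kb it was 3 in H82 and 2 in H146, and with 5 kb 4 in H82 and 3 in H146. Regions of at least 500 bp left 5 in the H82 window and 4 in H146, of which 80% and 100% overlapped the other line, covering 1.30% and 1.10%. The overlapping share of H82 regions passed from a minority (44.4%) to a majority with flanks of 100 kb (54.5%). The covered share was 2.03% and 1.44% with flanks of 20 kb, 2.13% and 1.5% with 100 kb, and 2.12% and 1.37% without regions of identical ends. Summed body coverage was 2.11% and 1.31% with 10 kb to either side, 0.559% and 0.286% without the 1 kb around the start, 0.31% in both lines with regions of at least 500 bp, and 0.740% and 0.476% without regions of identical ends. The IRF word was found in 3 promoters within 1 kb of the start, against 1 in the shorter stretch. The share of all promoters with the word in so long a stretch was not counted, so no excess can be read from this. The remaining values of these results under the alternatives differed from the main value by at most 1.5 times (counts) or lay within its interval of counting error (shares of regions), which is wide for so few regions.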
